A study of Mus musculus with 17 samples.

Results

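The genes described here are 44 mouse genes of DNA replication and S phase, the part of the cell cycle in which the genome is copied. They were chosen by name, for what their products do. All 44 had a probe on the array. For 43 of them a probe passed the filter on dim probes, which kept 16462 named genes in all. *Pola1*, the catalytic subunit of DNA polymerase alpha, was the exception and is not described further.

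Replication is prepared in G1, when the origin recognition complex with Cdc6 and Cdt1 loads the Mcm2 to Mcm7 helicase onto chromatin. At the start of S phase Mcm10, Cdc45 and the GINS complex turn that helicase on. Polymerases, a sliding clamp and ligase then copy both strands from nucleotides that ribonucleotide reductase and thymidylate synthase supply. Transcription of many of these genes is driven by E2F factors, which stay in check in resting cells. Naive and memory CD8 T cells are mostly resting, and antigen on an activating cell brings them into a fast cycle of division.

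The 17 samples are CD8 T cells whose donors were OT-I mice. Their T cell receptor recognises a peptide of ovalbumin (OVA), and all were on a C57Bl/6 background and 2 to 6 months old. The 5 naive samples and the 3 memory samples came from spleen, the memory cells 3 months after infection with Listeria monocytogenes OVA. The 4 LSEC-primed samples came from coculture with liver sinusoidal endothelial cells (LSEC). The 5 effector samples (Teff) were activated by dendritic cells (DC), in coculture with splenic DC. Effector sample 8 gives spleen as its source, and LSEC-primed sample 4 carries the cell type LSEC-primed where the other 3 carry Tpm. All samples were labelled as isolated lymphocytes. Whether each sample is its own mouse or culture is not given, so p-values measure the spread between these samples, which may be technical. The labels give no time in culture and no antigen dose.

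Mean intensity per array was 227 to 471 in 15 samples and 140 and 96.7 in memory samples 3 and 5. The share of probes above background was 25.9% to 32.7% on 16 arrays and 15.4% on memory sample 5. The T cell genes *Cd3e*, *Cd3g*, *Cd8b1* and *Thy1* were above background on every array, whereas the probe of *Cd8a* was above it on 1 array. Summed levels of 14 endothelial markers were 4280 to 6091 (linear intensity) in LSEC-primed, 1139 to 1544 in naive, 1856 to 2283 in effector and 2539 to 3243 in memory samples. The sums in memory and effector samples rest on few genes. In memory over naive cells 2 of the 14 rose and none fell, with a median log2 difference of -0.15. In effector over naive cells 3 rose and 2 fell, with a median of -0.015. Of these markers 7 rose in LSEC-primed over naive cells, while *Clec4g* and *Kdr* were above background on none of these 9 arrays. Of 8 stellate cell and fibroblast markers 4 rose, with sums of 1353 to 2219 against 505 to 528, and *Col3a1* and *Lum* stayed below background on all 9. LSEC-primed sample 14 also had high sums for DC markers (5789, against 537 to 741 in the other 3) and macrophage markers (2084, against 297 to 436). The DC marker sums were 1701 to 2722 in effector, 594 to 2007 in naive and 571 to 1362 in memory samples. Erythroid marker sums were 5500 to 30624 in naive and 5401 to 13236 in memory samples, against at most 476 in LSEC-primed and effector samples. The part of these other cells in the results was not tested.

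Levels are log2 values of normalised intensity. Single arrays are given in the order of their sample numbers, which are 1, 2, 11, 12 and 13 for naive, 3, 5 and 9 for memory, 4, 7, 14 and 15 for LSEC-primed and 6, 8, 10, 16 and 17 for effector cells. Averaged over the 43 genes, the log2 level was 7.77 ± 0.060 (SD, n = 5) in naive and 7.63 ± 0.065 (n = 3) in memory cells. It was 8.14 ± 0.138 (n = 4) in LSEC-primed and 9.04 ± 0.033 (n = 5) in effector cells. The naive arrays ran from 7.71 to 7.87, the memory arrays from 7.56 to 7.69, the LSEC-primed arrays from 7.94 to 8.25 and the effector arrays from 8.99 to 9.08. No group overlapped another on this average, and LSEC-primed sample 7 was the lowest of its group. In bulk RNA a larger share of cycling cells and more of these transcripts per cell cannot be told apart. The mean of 36 genes of mitosis followed the same order, at 6.67 ± 0.211 in memory, 7.00 ± 0.134 in naive, 7.69 ± 0.374 in LSEC-primed and 8.97 ± 0.060 in effector cells. On this list LSEC-primed sample 14 was highest of its group, at 8.23, while on the replication genes it lay at 8.18, inside the range of the others.

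**Figure D1:**
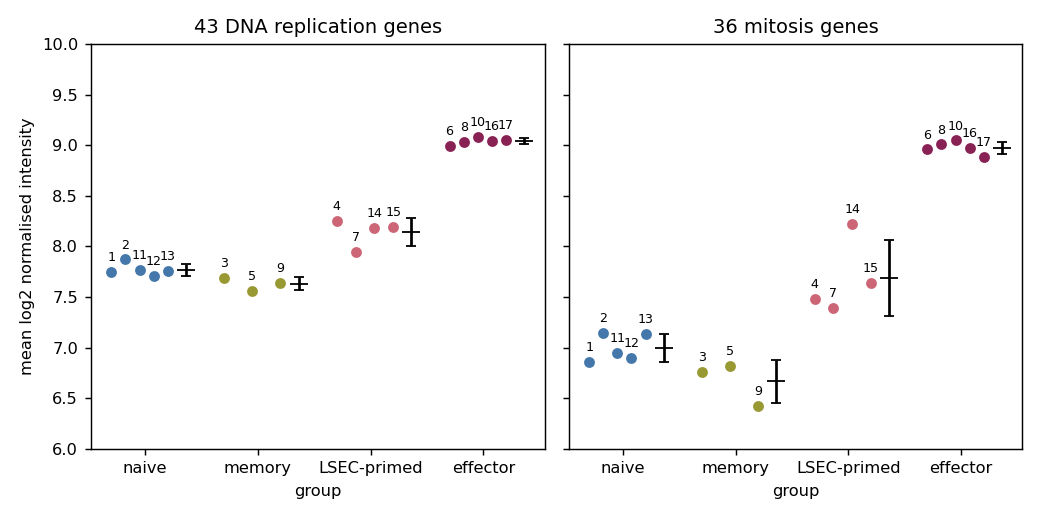
Mean log2 normalised intensity of the 43 replication genes (left) and of 36 mitosis genes (right) on each array, with sample numbers beside the points and the group mean ± SD as bars. Effector samples sit between 8.99 and 9.08 on the left panel, LSEC-primed samples between 7.94 and 8.25, and naive and memory samples at or below 7.87.

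Effector cells had the highest group mean for 40 of the 43 genes (93.0%), as did 25.3% of all named genes. The exceptions were *Cdt1* and *Rpa1*, highest in naive cells, and *Rpa2*, highest in memory cells. For 26 genes (60.5%, against 5.32% of named genes) each effector array lay above every other array. The LSEC-primed mean lay between the naive and effector means for 37 genes (86.0%, against 20.9%). For *Mcm10*, *Cdc45*, *Gins1*, *Gins2* and *Rrm1* every LSEC-primed array lay above every naive and memory array and below every effector array, a pattern that 1.13% of named genes showed. Memory cells had the lowest mean for 29 genes (67.4%, against 30% of named genes) and naive cells for 12 (27.9%, against 23.4%). All 43 genes were above background on each effector array, 39 or 40 on each LSEC-primed array, 34 to 39 on each naive array and 20 to 33 on each memory array.

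**Figure D2:**
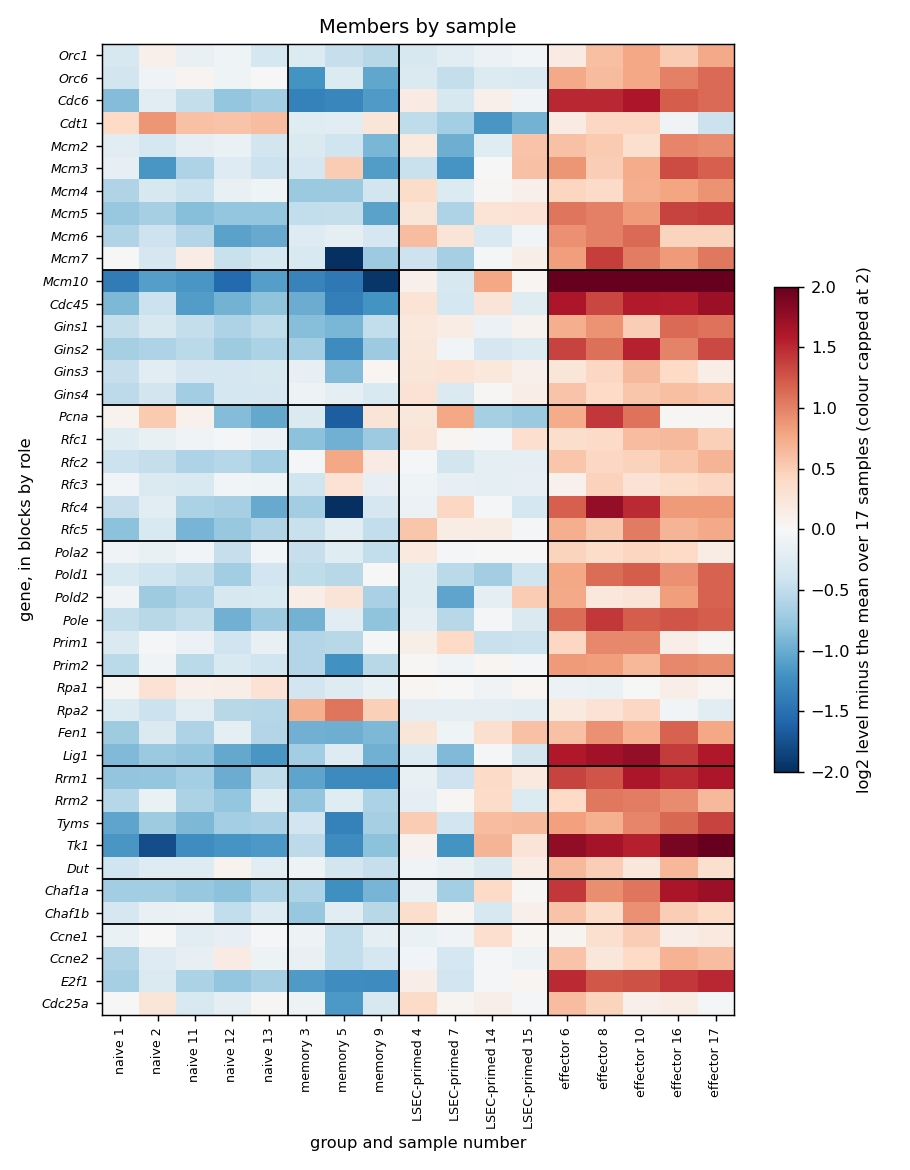
Log2 level of each of the 43 genes on each array, minus that gene's mean over 17 samples, with genes in blocks by role and the colour capped at 2. The 5 effector columns are red in nearly all rows, *Cdt1* is red in naive cells and blue in LSEC-primed cells, and *Rpa2* is red in memory cells.

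The promoters of these genes are shown because members that move together can share regulatory letters. RefSeq promoters (GRCm38.p6, 250 bases before to 50 after the start) were on hand for 36 of the 44 genes. *Mcm4*, *Gins1*, *Gins2*, *Gins4*, *Rfc2*, *Pole*, *Prim2* and *Ccne2* were not analysed here. Of the 36 genes with a promoter, 13 (36.1%) held TTTCCCGC, TTTCGCGC, TTTGCCGC or TTTGGCGC on either strand, the letters of an E2F-type site, against 2.61% of 27025 genes. CCAAT on either strand stood in 22 of the 36 (61.1%, against 41.1%). These letters can overlap on opposite strands, as they do in *Mcm5* and *Mcm6*. A match is a description of the letters and not a measured site. The 170 bases before the start of 6 members follow on the strand of the gene, with matches in capitals. *Mcm5*, *Mcm6*, *Mcm7*, *Cdc6* and *Gins3* hold an E2F-type match there. *Mcm10*, the member with the largest difference between effector and naive cells, holds 2 CCAAT matches and no E2F-type match in this window. The 6 are examples, and a match does not go with a rise in every member. *Cdt1*, lower in LSEC-primed than in naive cells, holds an E2F-type match after the start, outside such a window. *Mcm3*, *Pold1* and *Lig1* also hold theirs only after the start. *Mcm7* has a further promoter entry that is not shown. Their positions are chr8:75109339-75109508 (plus strand), chr1:128359706-128359875 (minus), chr5:138171884-138172053 (minus), chr11:98907981-98908150 (plus), chr8:95633389-95633558 (plus) and chr2:5012792-5012961 (minus).
Mcm5: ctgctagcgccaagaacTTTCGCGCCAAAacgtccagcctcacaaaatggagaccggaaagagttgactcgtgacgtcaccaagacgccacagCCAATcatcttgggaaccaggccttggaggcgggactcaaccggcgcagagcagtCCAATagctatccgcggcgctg
Mcm6: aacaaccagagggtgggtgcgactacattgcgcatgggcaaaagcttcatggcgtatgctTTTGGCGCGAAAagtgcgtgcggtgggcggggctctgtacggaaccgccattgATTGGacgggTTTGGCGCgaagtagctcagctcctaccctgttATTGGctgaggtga
Mcm7: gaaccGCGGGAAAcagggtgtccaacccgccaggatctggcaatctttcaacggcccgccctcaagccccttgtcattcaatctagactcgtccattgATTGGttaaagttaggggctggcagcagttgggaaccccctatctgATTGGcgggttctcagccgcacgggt
Cdc6: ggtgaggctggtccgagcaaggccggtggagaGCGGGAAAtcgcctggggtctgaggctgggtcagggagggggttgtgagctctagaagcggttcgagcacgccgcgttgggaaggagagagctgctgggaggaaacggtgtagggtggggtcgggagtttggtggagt
Gins3: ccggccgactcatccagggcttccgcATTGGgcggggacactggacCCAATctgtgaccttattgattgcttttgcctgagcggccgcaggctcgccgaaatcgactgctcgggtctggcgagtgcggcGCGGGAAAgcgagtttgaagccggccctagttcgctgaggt
Mcm10: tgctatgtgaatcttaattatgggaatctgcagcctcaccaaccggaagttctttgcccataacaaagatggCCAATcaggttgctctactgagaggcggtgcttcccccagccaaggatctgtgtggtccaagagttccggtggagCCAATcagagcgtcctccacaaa

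Between effector and naive cells, 39 of the 43 genes rose and 1, *Cdt1*, fell at an adjusted p under 0.05 (limma, 5 against 5 samples), where 26.5% of all named genes were called, 14.2% as higher and 12.3% as lower. The median log2 difference of the 43 was 1.22, against -0.0037 for all named genes, and 24 rose at least 2-fold, as did 5.28% of named genes. For 39 of them the effector arrays did not overlap the naive arrays and lay above them (13.5% of named genes), and for none did they lie below (11.2%). *Pcna*, *Rpa1* and *Cdc25a* were not called. The calls of *Cdt1*, *Prim1* and *Ccne1* were lost without 1 of several arrays, with adjusted p of up to 0.0918, 0.0593 and 0.0679.

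Between LSEC-primed and naive cells (4 against 5), 17 rose and 1, again *Cdt1*, fell, where 15.8% of named genes were called, 10.0% as higher and 5.76% as lower. Their median log2 difference was 0.37. The LSEC-primed arrays lay above all naive arrays for 14 genes (9.85% of named genes) and below them for *Cdt1* alone (5.73%). In *Cdc6*, *Lig1*, *Tk1*, *Chaf1a* and *E2f1*, which were called, sample 7 lay within the naive range. Median scaling brings arrays to the same median without quantile normalisation. With it 6 genes stayed called as higher, *Mcm10*, *Cdc45*, *Cdc6*, *Gins2*, *Rfc5* and *Tyms*, and none as lower. Of all features called with median scaling 66.1% were higher, against 59.0% with quantile normalisation. *Chaf1a* lost its call in 8 of 9 fits that left out 1 array (adjusted p up to 0.163), *Lig1* in 6 (up to 0.126), and *Gins2* without LSEC-primed sample 4 (0.061).

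Relative to effector cells, 35 genes were lower in LSEC-primed cells and none higher (4 against 5), where 17.7% of named genes were called, 9.51% as higher and 8.24% as lower. The median log2 difference was -0.78, and 16 were lower by at least 2-fold, as were 2.93% of named genes. Groups did not overlap for 29, all lower in LSEC-primed cells (8.32% of named genes, against 10.0% higher). The genes that were not called were *Gins3*, *Pcna*, *Prim1*, *Rpa1*, *Rpa2*, *Tyms*, *Ccne1* and *Cdc25a*. Median scaling left 22 lower, where 31.0% of all called features were higher, against 54.0% with quantile normalisation. Without 1 of several arrays the calls of *Chaf1b*, *Mcm2*, *Mcm3*, *Mcm6*, *Pola2*, *Pold2* and *Rfc1* were lost, most often *Pola2*, in 7 of 9 fits, with adjusted p of up to 0.153 over these genes. These 2 comparisons and that of effector with naive cells share samples, so their values are given side by side and not as support for each other.

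**Figure D3:**
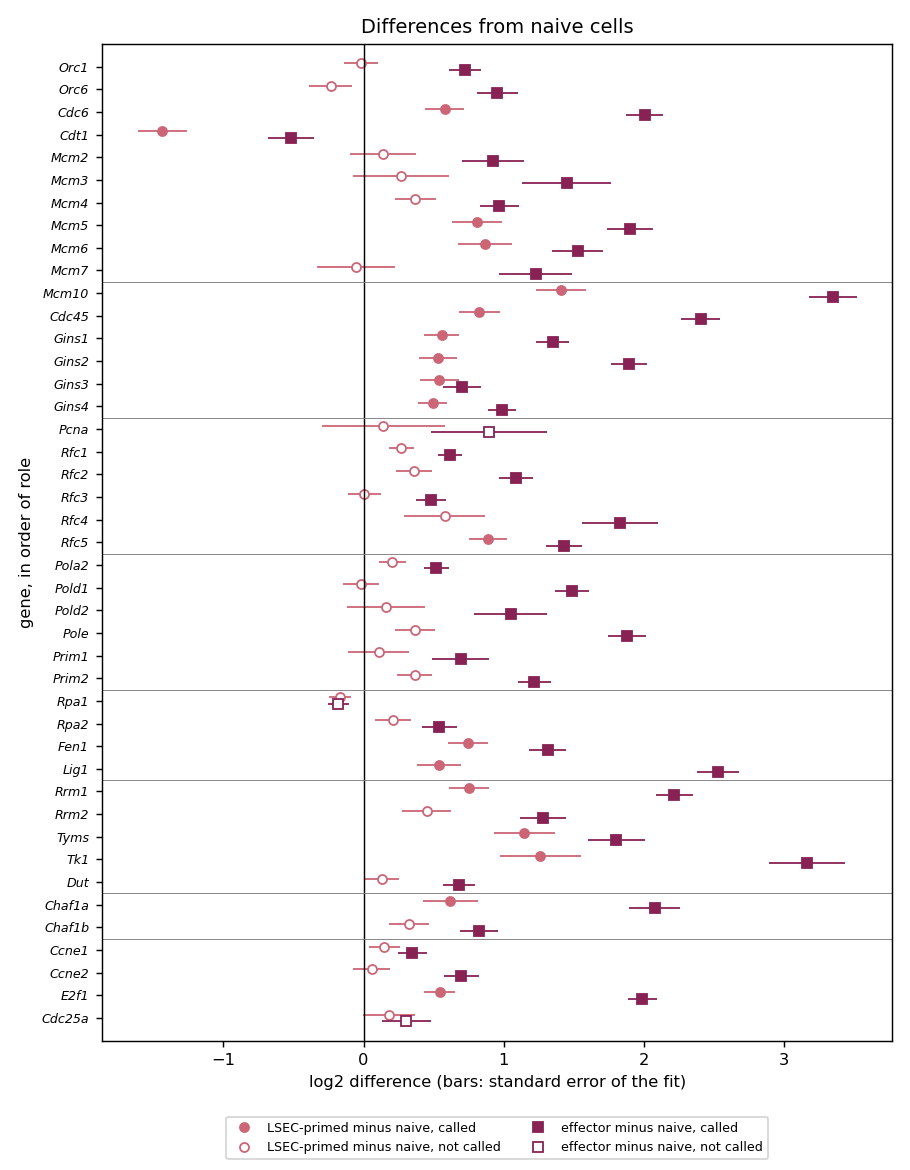
Log2 difference from naive cells of each of the 43 genes in LSEC-primed (circles) and effector (squares) cells, with the standard error of the fit, ordered by role from origin licensing at the top to S phase entry at the bottom. Filled marks were called at an adjusted p under 0.05. Most squares lie to the right of the circle of the same gene, and *Cdt1* lies left of 0 in both.

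For the counts by role that follow, 14.2% of all named genes rose in effector and 10.0% in LSEC-primed over naive cells. Of named genes 8.24% were lower in LSEC-primed than in effector cells. Of the 10 genes that mark and license origins, 9 rose in effector over naive cells. In LSEC-primed cells 3 rose over naive cells, and all 10 were lower than in effector cells. *Cdc6*, which recruits the helicase with the origin recognition complex, was among the 3. The *Cdc6* log2 level was 6.50, 7.14, 6.89, 6.60 and 6.67 in the naive arrays and 6.02, 6.06 and 6.23 in the memory arrays. It was 7.53, 7.04, 7.48 and 7.30 in LSEC-primed cells and 8.88, 8.88, 8.99, 8.58 and 8.50 in effector cells. Effector arrays were well above the rest and no memory array was above background. The log2 difference from naive cells was 2.01 ± 0.13 (SE; adjusted p = 5.03e-09) in effector cells and 0.58 ± 0.14 (SE; adjusted p = 0.0084) in LSEC-primed cells. Relative to memory cells *Cdc6* was at least 3.91-fold higher in effector cells (adjusted p = 1.46e-09) and in LSEC-primed cells by at least 1.45-fold (adjusted p = 4.83e-05). Such a lower bound sets the bright group against the background level of the dim arrays.

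Subunits of the Mcm2 to Mcm7 helicase rose in effector cells by log2 differences between 0.93 (*Mcm2*) and 1.90 (*Mcm5*) over naive cells, and all 6 were called. In LSEC-primed cells only *Mcm5* and *Mcm6* of the 6 were called over naive cells. The *Mcm5* log2 level was 9.67, 9.76, 9.56, 9.65 and 9.65 in the naive arrays and 9.93, 9.95 and 9.36 in the memory arrays. It was 10.66, 9.80, 10.70 and 10.71 in LSEC-primed cells and 11.49, 11.44, 11.28, 11.77 and 11.81 in effector cells. Sample 7, at 9.80, stood close to the naive arrays and the other 3 LSEC-primed arrays stood almost 1 log2 unit above them. The log2 difference of *Mcm5* was 0.81 ± 0.18 (SE; adjusted p = 0.00427) in LSEC-primed and 1.90 ± 0.17 (SE; adjusted p = 1.6e-07) in effector cells. For *Mcm2*, *Mcm3*, *Mcm4* and *Mcm7* the LSEC-primed log2 difference from naive cells was 0.14 ± 0.24 (SE), 0.27 ± 0.34 (SE), 0.37 ± 0.15 (SE) and -0.05 ± 0.28 (SE). The origin recognition gene *Orc6* rose by 0.95 log2 units in effector over naive cells and gave -0.23, not called, in LSEC-primed cells. *Orc1* was above background on 1 of 5 naive arrays, no memory or LSEC-primed array and all 5 effector arrays. It was called as higher in effector than in naive cells (adjusted p = 0.000128). In LSEC-primed cells it was at least 1.52-fold lower than in effector cells (adjusted p = 0.000357).

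*Cdt1*, which loads the helicase together with Cdc6 and is destroyed as protein once S phase begins, fell in LSEC-primed cells. The call of this fall was lost with median scaling. A smaller fall in effector cells depended on both the normalisation and the arrays used. The *Cdt1* log2 level was 10.32, 10.80, 10.51, 10.50 and 10.54 in the naive arrays and 9.68, 9.69 and 10.17 in the memory arrays. It was 9.42, 9.24, 8.76 and 8.98 in LSEC-primed cells and 10.08, 10.34, 10.33, 9.84 and 9.49 in effector cells. LSEC-primed arrays were the lowest and overlapped no other group, and only effector samples 8 and 10 reached the naive range. Relative to naive cells the log2 difference was -1.43 ± 0.18 (SE; adjusted p = 2.49e-05) in LSEC-primed cells, a fall of 2.7-fold, and -0.52 ± 0.17 (SE; adjusted p = 0.031) in effector cells. The log2 difference of LSEC-primed from effector cells was -0.92 ± 0.18 (SE; adjusted p = 0.00128), and that from memory cells -0.75 ± 0.20 (SE; adjusted p = 0.0186). With median scaling the log2 difference of LSEC-primed from naive cells was -1.36 and not called (adjusted p = 0.148), and that from memory cells turned to 0.85, not called. The effector difference from naive cells was -0.25 with median scaling and -0.29 within samples 1 to 11 (adjusted p = 0.349), neither called, and -0.85 within samples 12 to 17 (adjusted p = 0.00482). *Cdt1* had a single probe.

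All 6 genes that switch the helicase on rose in LSEC-primed and in effector cells over naive cells, and 5 of them, without *Gins3*, were lower in LSEC-primed than in effector cells. *Mcm10*, which binds the loaded helicase and helps to start unwinding, differed most of all members between effector and naive cells. The *Mcm10* log2 level was 6.75, 7.06, 6.99, 6.61 and 7.06 in the naive arrays and 6.82, 6.72 and 6.20 in the memory arrays. It was 8.25, 7.84, 8.93 and 8.19 in LSEC-primed cells and 10.22, 10.16, 10.44, 10.16 and 10.23 in effector cells. The 4 LSEC-primed arrays filled the gap between the naive and effector arrays without touching either. The log2 difference from naive cells was 3.35 ± 0.17 (SE; adjusted p = 2.76e-10) in effector cells, or 10.2-fold, and 1.41 ± 0.18 (SE; adjusted p = 3.42e-05) in LSEC-primed cells, or 2.66-fold. LSEC-primed cells were lower than effector cells by 3.83-fold (log2 difference -1.94 ± 0.18 SE, adjusted p = 9.11e-07). Only 1 of the 3 memory arrays was above background for *Mcm10*.

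*Cdc45*, the subunit that travels with the helicase at the fork, gave the same steps. The *Cdc45* log2 level was 6.55, 7.02, 6.34, 6.51 and 6.64 in the naive arrays and 6.46, 6.09 and 6.26 in the memory arrays. It was 7.72, 7.11, 7.71 and 7.22 in LSEC-primed cells and 9.07, 8.80, 9.04, 9.02 and 9.16 in effector cells. Naive and memory arrays overlapped, and each LSEC-primed array lay between them and the effector arrays. The log2 difference from naive cells was 0.83 ± 0.15 (SE; adjusted p = 0.000854) in LSEC-primed and 2.41 ± 0.14 (SE; adjusted p = 1.36e-09) in effector cells. *Cdc45* was at least 4.66-fold higher in effector than in memory cells (adjusted p = 2.05e-09), where no array was above background. The 4 GINS subunits differed from naive cells by 0.49 (*Gins4*) to 0.56 (*Gins1*) log2 units in LSEC-primed cells, a narrow range. In effector cells the range was wider, from 0.70 (*Gins3*) to 1.90 (*Gins2*). *Gins3* was the member of this group whose LSEC-primed and effector arrays overlapped, with a log2 difference of -0.16 ± 0.14 (SE; adjusted p = 0.63). Under median scaling all 6 genes kept a positive difference in LSEC-primed over naive cells, and *Mcm10*, *Cdc45* and *Gins2* kept the call.

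Among the clamp and its loader, 5 of 6 genes rose in effector over naive cells and 1, *Rfc5*, in LSEC-primed cells. In a set of 6, a count of 1 is close to the 10.0% of all named genes that rose in LSEC-primed cells. The Rfc subunits open the Pcna ring and place it on DNA. The *Rfc5* log2 level was 7.36, 7.88, 7.25, 7.43 and 7.59 in the naive arrays and 7.74, 7.96 and 7.69 in the memory arrays. It was 8.73, 8.33, 8.34 and 8.16 in LSEC-primed cells and 8.91, 8.73, 9.22, 8.86 and 8.95 in effector cells. LSEC-primed arrays lay above all naive and memory arrays and overlapped the effector range at a single point, sample 4. The log2 difference of *Rfc5* from naive cells was 0.89 ± 0.14 (SE; adjusted p = 0.000208) in LSEC-primed and 1.43 ± 0.13 (SE; adjusted p = 1.96e-07) in effector cells. *Rfc4* rose by 1.83 ± 0.27 (SE) and *Rfc1* by 0.61 ± 0.09 (SE) log2 units in effector cells. *Rfc3* was above background on effector arrays only and was at least 1.19-fold higher than in naive cells (adjusted p = 0.00272).

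All 6 measured polymerase and primase genes rose in effector over naive cells, and none of them passed the test in LSEC-primed cells. Finding none in a set of 6 is also close to the 10.0% of all named genes that rose in LSEC-primed cells. *Pold1*, the catalytic subunit of the lagging-strand polymerase delta, showed the difference between effector and LSEC-primed cells most plainly. The *Pold1* log2 level was 9.19, 9.10, 9.01, 8.80 and 9.11 in the naive arrays and 8.98, 8.94 and 9.48 in the memory arrays. It was 9.25, 8.96, 8.80 and 9.09 in LSEC-primed cells and 10.26, 10.60, 10.71, 10.40 and 10.67 in effector cells. The naive, memory and LSEC-primed arrays shared a range and the effector arrays stood apart above it. The log2 difference from naive cells was -0.02 ± 0.13 (SE; adjusted p = 0.977) in LSEC-primed and 1.49 ± 0.12 (SE; adjusted p = 7.94e-08) in effector cells. *Pole*, the catalytic subunit of the leading-strand polymerase epsilon, gave 0.37 ± 0.14 (SE; adjusted p = 0.122) and 1.88 ± 0.13 (SE; adjusted p = 1.57e-08). *Prim2*, the large primase subunit, gave 0.37 ± 0.12 (SE; adjusted p = 0.0675) and 1.22 ± 0.12 (SE; adjusted p = 5.06e-07), and its lowest LSEC-primed array was level with the highest naive array. For *Pola2*, *Pold2* and *Prim1* the LSEC-primed log2 difference was 0.21, 0.16 and 0.11, against 0.52, 1.05 and 0.69 in effector cells. An adjusted p above 0.05 does not show that these genes were equal in LSEC-primed and naive cells. With the mean of all probes 1 of the 6 was called as higher in LSEC-primed over naive cells. Within samples 12 to 17 *Pole* was called, with a log2 difference of 0.67 (adjusted p = 0.019).

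*Lig1*, the ligase that seals Okazaki fragments, was among the genes that separated effector cells most. The *Lig1* log2 level was 7.98, 8.13, 8.07, 7.83 and 7.70 in the naive arrays and 8.17, 8.61 and 7.91 in the memory arrays. It was 8.59, 7.99, 8.84 and 8.50 in LSEC-primed cells and 10.47, 10.55, 10.62, 10.26 and 10.46 in effector cells. LSEC-primed sample 7 lay among the naive arrays, and no effector array came near any other. *Lig1* was 5.77-fold higher in effector than in naive cells (log2 difference 2.53 ± 0.15 SE, adjusted p = 1.84e-09), and the LSEC-primed difference was 0.54 ± 0.16 (SE; adjusted p = 0.033). Relative to effector cells LSEC-primed cells were 3.97-fold lower (log2 difference -1.99 ± 0.16 SE, adjusted p = 1.9e-07). *Fen1*, which trims the flaps of Okazaki fragments, rose by 0.75 ± 0.14 (SE) log2 units in LSEC-primed and 1.31 ± 0.13 (SE) in effector cells over naive cells.

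*Rpa1* and *Rpa2* encode the large and middle subunits of the protein that coats unwound DNA, and *Rpa1* passed the test in neither coculture group. *Rpa1* had a log2 level of 12.19 ± 0.12 (SD) in naive, 11.77 ± 0.13 in memory, 12.02 ± 0.05 in LSEC-primed and 12.01 ± 0.11 in effector cells. It was not called between effector and naive cells (-0.18 ± 0.07 SE, adjusted p = 0.105) nor between LSEC-primed and naive cells (-0.17 ± 0.08 SE, adjusted p = 0.221). The *Rpa2* log2 level was 7.36, 7.20, 7.41, 7.08 and 7.07 in the naive arrays and 8.35, 8.71 and 8.12 in the memory arrays. It was 7.44, 7.46, 7.44 and 7.41 in LSEC-primed cells and 7.83, 7.93, 8.06, 7.58 and 7.43 in effector cells. Memory arrays lay above all others for *Rpa2*, and LSEC-primed arrays hardly varied. The log2 difference of *Rpa2* between memory and naive cells was 1.17 ± 0.14 (SE; adjusted p = 2.85e-05) and that between effector and naive cells 0.54 ± 0.12 (SE; adjusted p = 0.00317). On its other 2 probes the memory difference was 0.50 and 0.03, neither called, and on the probe used it was 0.13 with median scaling (adjusted p = 0.866).

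Nucleotide supply genes rose in effector cells in 5 of 5 cases and in LSEC-primed cells in 3, *Rrm1*, *Tyms* and *Tk1*. *Tk1*, the thymidine kinase of S phase, came next to *Mcm10* in size of difference. The *Tk1* log2 level was 6.67, 6.05, 6.60, 6.65 and 6.68 in the naive arrays and 7.31, 6.58 and 7.02 in the memory arrays. It was 7.91, 6.64, 8.52 and 8.09 in LSEC-primed cells and 9.60, 9.50, 9.39, 9.73 and 10.22 in effector cells. In LSEC-primed cells sample 7 was at the naive level while the other 3 arrays were more than 1 log2 unit above it. The log2 difference from naive cells was 3.16 ± 0.27 (SE; adjusted p = 1.4e-07) in effector cells, or 8.95-fold, and 1.26 ± 0.29 (SE; adjusted p = 0.00636) in LSEC-primed cells, or 2.4-fold. Between LSEC-primed and effector cells it was -1.90 ± 0.29 (SE; adjusted p = 0.000156).

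*Tyms*, which makes thymidylate, came closer to the effector level in LSEC-primed cells. The *Tyms* log2 level was 6.74, 7.09, 6.91, 7.12 and 7.15 in the naive arrays and 7.42, 6.45 and 7.14 in the memory arrays. It was 8.32, 7.42, 8.42 and 8.45 in LSEC-primed cells and 8.62, 8.51, 8.77, 8.96 and 9.15 in effector cells. The highest LSEC-primed array was just below the lowest effector array and sample 7 was level with memory sample 3. The log2 difference from naive cells was 1.15 ± 0.22 (SE; adjusted p = 0.00134) in LSEC-primed and 1.80 ± 0.20 (SE; adjusted p = 3.08e-06) in effector cells. That between LSEC-primed and effector cells, -0.65 ± 0.22 (SE; adjusted p = 0.0528), was not called. *Tyms* was called as lower in LSEC-primed than in effector cells with the mean of its 5 kept probes. Within samples 12 to 17 it was too (-0.62, adjusted p = 0.0108), but not within samples 1 to 11 (-0.77, adjusted p = 0.159). *Rrm1*, the large subunit of ribonucleotide reductase, was stepwise. The *Rrm1* log2 level was 8.24, 8.25, 8.33, 8.02 and 8.50 in the naive arrays and 7.96, 7.75 and 7.75 in the memory arrays. It was 8.88, 8.61, 9.39 and 9.21 in LSEC-primed cells and 10.37, 10.27, 10.64, 10.51 and 10.64 in effector cells. No LSEC-primed array of *Rrm1* overlapped another group. Its log2 difference from naive cells was 0.75 ± 0.14 (SE; adjusted p = 0.00119) in LSEC-primed and 2.22 ± 0.13 (SE; adjusted p = 1.84e-09) in effector cells. The small subunit gene *Rrm2* rose in effector cells (1.28 ± 0.16 SE) and was not called in LSEC-primed cells (0.45 ± 0.17 SE), and *Dut*, which keeps uracil out of DNA, gave 0.68 ± 0.11 (SE) and 0.13 ± 0.12 (SE).

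Of the chromatin assembly factor subunits, which place histones behind the fork, *Chaf1a* rose in effector cells by 2.08 ± 0.18 (SE; adjusted p = 1.66e-07) and *Chaf1b* by 0.82 ± 0.13 (SE; adjusted p = 0.000151) log2 units over naive cells. In LSEC-primed cells the log2 difference was 0.62 ± 0.19 (SE; adjusted p = 0.0429) for *Chaf1a* and 0.33 ± 0.14 (SE; adjusted p = 0.181) for *Chaf1b*. Both were lower than in effector cells. Among the 4 genes of S phase entry *E2f1*, the gene of a transcription factor of this programme, rose most. The *E2f1* log2 level was 7.41, 7.78, 7.44, 7.30 and 7.42 in the naive arrays and 6.94, 6.84 and 6.81 in the memory arrays. It was 8.20, 7.69, 8.04 and 8.12 in LSEC-primed cells and 9.56, 9.31, 9.34, 9.48 and 9.59 in effector cells. All effector arrays lay above all others, and all memory arrays lay below all naive arrays. The log2 difference of *E2f1* from naive cells was 1.99 ± 0.10 (SE; adjusted p = 4.26e-10) in effector, 0.54 ± 0.11 (SE; adjusted p = 0.00233) in LSEC-primed and -0.60 ± 0.12 (SE; adjusted p = 0.00245) in memory cells. The cyclin E genes *Ccne1* and *Ccne2* were above background on all 5 effector arrays, on 0 and 1 of 5 naive arrays, on no memory array and on 2 and 1 of 4 LSEC-primed arrays. Both were called as higher in effector than in naive cells (adjusted p = 0.0215 and 0.000417), *Ccne1* by at least 1.16-fold. *Cdc25a*, a phosphatase that frees cyclin-dependent kinases, was not called in either (0.18 and 0.30).

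In most of these genes memory and naive cells were not called apart. Of the 43, 2 rose in memory over naive cells, *Rfc2* and *Rpa2*, and 6 fell, *Orc6*, *Cdc6*, *Cdt1*, *Rfc1*, *Rpa1* and *E2f1* (3 against 5 samples), where 13.6% of named genes were called, 6.68% as higher and 6.94% as lower. With each array scaled to a common median 0 were called as higher and 12 as lower. Of all features called in this comparison 3.44% were then higher, against 47.2% with quantile normalisation. Groups did not overlap for 4 higher and 8 lower genes (7.93% and 8.12% of named genes). *Cdc6* was called as lower although no memory array measured it above background, so how far it fell is not known. Among the called genes the largest falls were those of *Orc6* (-0.74 ± 0.17 SE, adjusted p = 0.00721), *Rfc1* (-0.71 ± 0.10 SE, adjusted p = 0.000104) and *Cdt1* (-0.68 ± 0.19 SE, adjusted p = 0.0268) in log2 units. *Mcm7* gave -0.86 ± 0.30 (SE; adjusted p = 0.0809) and was not called. The median log2 difference of the 43 was -0.24. It was -0.00035 with the 9 genes that no memory array measured above background set to no difference. The background of the memory arrays left no bound for these 9 genes, so this value follows from that setting. Without the dim memory samples 3 and 5 the memory group is 1 array, sample 9, which is assumed to vary like the other groups, and that fit called 5 genes, *Orc6*, *Rfc1*, *E2f1*, *Rfc2* and *Rpa2*. Without single arrays *Cdt1* lost its call in 3 of 8 fits, with an adjusted p of up to 0.122.

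*Rfc2*, a clamp loader subunit, had a log2 level of 10.01, 10.81 and 10.20 in memory and 9.60, 9.57, 9.42, 9.47 and 9.36 in naive cells. Memory sample 5 was the highest array of all groups, and memory and naive arrays did not overlap. The log2 difference was 0.85 ± 0.14 (SE; adjusted p = 0.000404) on this probe, the brightest of 4, and -0.07, 0.11 and 0.02 on the other 3. With median scaling the difference turned to -0.78, not called, and that between LSEC-primed and memory cells, -0.49 ± 0.14 (SE; adjusted p = 0.0293), turned to 1.28. In effector over naive cells all 4 probes rose, by 1.09 to 1.47 log2 units.

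Relative to memory cells, 38 genes rose and 1, *Rpa2*, fell in effector cells (5 against 3), where 26.1% of named genes were called, 14.1% as higher and 12.0% as lower. Groups did not overlap for 35 higher and 1 lower gene (14.7% and 12.5% of named genes). *Rpa1*, *Mcm3*, *Rfc3* and *Cdc25a* lost their calls without 1 of several arrays, with adjusted p of up to 0.203. The median log2 difference was 1.26, or 1.22 with 9 genes at their bounds, and at no difference where no bound could be given. At least 2-fold rises were seen for 27 (5.96% of named genes). The fall of *Rpa2* (-0.63 ± 0.14 SE, adjusted p = 0.00342) turned to 0.74 under median scaling. In LSEC-primed cells 19 rose and 3, *Cdt1*, *Rfc2* and *Rpa2*, fell relative to memory cells (4 against 3), where 15.5% were called, 9.58% as higher and 5.93% as lower. Median scaling gave 27 higher and none lower, where 97.0% of all called features were higher, against 59.5% with quantile normalisation. Groups did not overlap for 16 higher and 2 lower genes (11.3% and 7.68%). Leaving out 1 array ended the call of *Cdc25a*, *Cdt1*, *Chaf1a*, *Chaf1b*, *Gins3*, *Mcm4*, *Mcm5*, *Rfc2* or *Rfc5* in 1 to 5 of 7 fits, with adjusted p of up to 0.287. Against memory sample 9 alone, with the spread taken from the other groups, the count of called genes was 12. In a fit of the 2 groups alone, with all 7 arrays, it was 10. Among genes that some memory array measured above background, *Rfc1* (0.98 ± 0.10 SE, adjusted p = 7.21e-06), *E2f1* (1.15 ± 0.13 SE, adjusted p = 1.06e-05) and *Mcm10* (1.72 ± 0.20 SE, adjusted p = 2.2e-05) had the smallest adjusted p.

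*Pcna*, the sliding clamp and a usual marker of cycling cells, was not called in any of the 6 comparisons. The *Pcna* log2 level was 7.81, 8.26, 7.82, 6.87 and 6.71 in the naive arrays and 7.44, 6.08 and 7.99 in the memory arrays. It was 7.97, 8.51, 7.07 and 7.00 in LSEC-primed cells and 8.47, 9.15, 8.82, 7.75 and 7.76 in effector cells. In naive, LSEC-primed and effector cells the samples numbered 12 to 17 lay below those numbered 1 to 11, and memory sample 5 was the lowest array. The log2 difference between effector and naive cells was 0.90 ± 0.42 (SE; adjusted p = 0.16). Samples 12 to 17 stood apart from 1 to 11 in the leading component of the variation within groups (29.9% of it) in all 3 groups that hold both, a split noticed in the data, since no label names a batch. All memory samples have numbers up to 11. Because the split was chosen from these same data, p-values of fits that use it are descriptive. With this split as a term 5.07% of named genes were called between its sides, and 3 members were, all lower in samples 12 to 17. These were *Mcm6* by -0.57 (adjusted p = 0.000131), *Pcna* by -1.14 (adjusted p = 0.00574) and *Prim1* by -0.50 (adjusted p = 0.0345). In that fit *Pcna* rose in effector over naive cells (log2 difference 0.90 ± 0.26 SE, adjusted p = 0.0147). Within samples 12 to 17 its log2 difference was 0.97 (adjusted p = 0.000632) and within samples 1 to 11 it was 0.85 (adjusted p = 0.238).

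**Figure D4:**
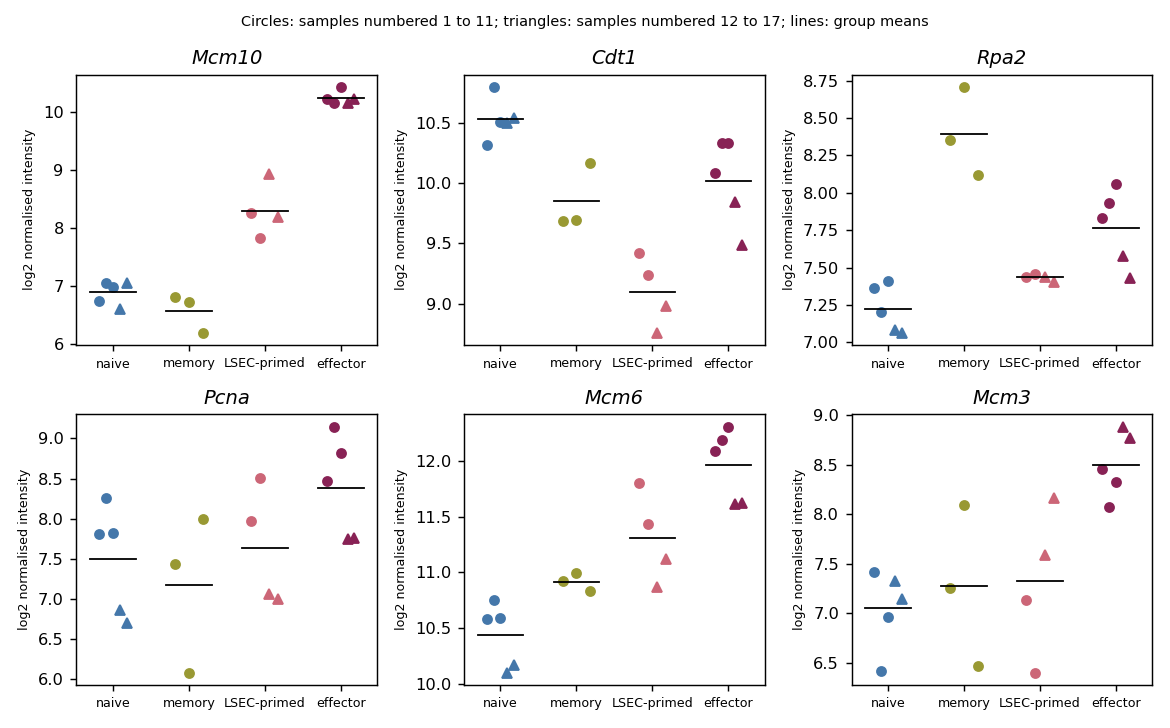
Log2 level of 6 genes on each array, by group, with circles for samples 1 to 11, triangles for samples 12 to 17 and lines for group means. The scale differs between panels and does not start at 0. *Mcm10* rises in steps, *Cdt1* is lowest in LSEC-primed cells, *Rpa2* is highest in memory cells, and for *Pcna* and *Mcm6* the triangles lie below the circles in naive, LSEC-primed and effector cells.

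*Mcm6*, a helicase subunit, differed between the sides of that split and between the groups. The *Mcm6* log2 level was 10.58, 10.76, 10.59, 10.10 and 10.17 in the naive arrays and 10.92, 10.99 and 10.83 in the memory arrays. It was 11.80, 11.44, 10.87 and 11.12 in LSEC-primed cells and 12.09, 12.19, 12.31, 11.62 and 11.62 in effector cells. Within each side the order naive, LSEC-primed, effector held without overlap. The log2 difference of LSEC-primed from naive cells was 0.98 (adjusted p = 0.00139) within samples 1 to 11 and 0.86 (adjusted p = 0.00475) within samples 12 to 17, against 0.87 ± 0.19 (SE; adjusted p = 0.00489) in all samples. Over the 43 genes the test of LSEC-primed against naive cells called 7 within samples 1 to 11 and 20 within 12 to 17, and that of effector against naive cells 34 and 37. Between LSEC-primed and effector cells 22 and 30 were called. With the split as a term the counts were 18, 41 and 37. The shares of named genes called in these fits were not counted. *Mcm3*, another helicase subunit, varied most within groups after *Pcna*. The *Mcm3* log2 level was 7.42, 6.42, 6.96, 7.33 and 7.14 in the naive arrays and 7.25, 8.10 and 6.47 in the memory arrays. It was 7.13, 6.40, 7.59 and 8.17 in LSEC-primed cells and 8.46, 8.07, 8.32, 8.88 and 8.77 in effector cells. Its LSEC-primed arrays spanned the naive and part of the effector range, and the log2 difference was 0.27 ± 0.34 (SE; adjusted p = 0.793) in LSEC-primed and 1.45 ± 0.32 (SE; adjusted p = 0.00238) in effector cells. The median within-group SD of the 43 genes was 0.22 on the log2 scale, against 0.18 for named genes.

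Of the 43 genes 19 had more than 1 kept probe, and in no comparison did 2 probes of a gene give opposite calls. The probes gave the same call for 10 of the 19 between effector and naive cells and for 9 between LSEC-primed and naive cells. All kept probes of a gene had differences of the same sign for 14 and 12 of the 19 in these comparisons. Between memory and naive cells they did so for 10, so in many genes probes differed in direction. Many of the other probes, such as those of *Cdc45* and *Rfc5*, lay at background on nearly all arrays. *Rrm1* rose on both of its bright probes, by 0.75 and 0.83 log2 units in LSEC-primed and by 2.22 and 2.15 in effector cells over naive cells. The 2 further bright probes of *Mcm6* gave 0.79 and 0.77 in LSEC-primed cells, not called by themselves, and 2.23 and 2.20 in effector cells. *Mcm10* on its dimmer probe gave 0.22, not called, and 1.52, called.

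Of 30 other replication genes 15 rose and 2 fell in effector over naive cells, and 5 rose and 1 fell in LSEC-primed cells. For this and the lists that follow, 14.2% of all named genes rose and 12.3% fell in effector cells. In LSEC-primed cells 10.0% rose and 5.76% fell. Median scaling gave 15 and 0 in effector cells and no call in LSEC-primed cells. *Clspn*, which carries the checkpoint signal at stalled forks, rose by 2.04 ± 0.18 (SE) log2 units in effector and 0.68 ± 0.19 (SE) in LSEC-primed cells. *Tipin*, a fork protection gene, rose by 2.02 ± 0.11 (SE) and 1.00 ± 0.12 (SE). *Dbf4*, the activator of the kinase Cdc7 that fires origins, was the one that fell in LSEC-primed cells, with a log2 difference of -1.27 ± 0.11 (SE; adjusted p = 1.17e-06), or -1.19 (adjusted p = 0.0639) with median scaling. Of 24 genes of chromatin duplication and fork repair 16 rose in effector cells and none fell, and in LSEC-primed cells 4 rose and 1 fell, or 1 and 0 with median scaling. *Uhrf1*, which copies DNA methylation with Dnmt1, rose by 2.63 ± 0.18 (SE) in effector and 1.27 ± 0.19 (SE) in LSEC-primed cells. *Nasp*, a histone chaperone gene, fell in LSEC-primed cells (-0.68 ± 0.21 SE, adjusted p = 0.039, and 0.536 as the adjusted p with median scaling).

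Among 25 other nucleotide synthesis genes 9 rose and 1 fell in effector over naive cells. In LSEC-primed cells 5 rose and none fell, or 3 and 0 with median scaling. The shares of all named genes were 14.2% and 12.3% in effector cells and 10.0% and 5.76% in LSEC-primed cells. Between LSEC-primed and effector cells 3 of the 25 were higher and 1 lower in LSEC-primed cells, or 0 and 1 with median scaling. Of all named genes 9.51% were higher and 8.24% lower. The 3 higher ones of the 25 were *Tk2*, the mitochondrial thymidine kinase gene (0.77 ± 0.15 SE, adjusted p = 0.00186), *Dctd*, that of deoxycytidylate deaminase (0.57 ± 0.18 SE, adjusted p = 0.0433), and *Dtymk*, that of thymidylate kinase (0.55 ± 0.10 SE, adjusted p = 0.000726). *Mthfd2*, a mitochondrial folate enzyme, differed from naive cells by 2.54 ± 0.17 (SE) in effector and 1.16 ± 0.18 (SE) in LSEC-primed cells. *Shmt1*, the cytosolic serine hydroxymethyltransferase, gave 1.33 ± 0.22 (SE) and 1.85 ± 0.24 (SE). Of 19 E2F, RB and G1/S regulators 10 rose and 2 fell in effector over naive cells, led by *Cdkn1a* (2.72 ± 0.34 SE), an inhibitor of cyclin-dependent kinases, and 3 rose and 1 fell in LSEC-primed cells, or 1 and 0 with median scaling. *Tfdp1*, the dimer partner of E2F proteins, rose in both, by 1.40 ± 0.18 (SE) in effector and 1.27 ± 0.19 (SE) in LSEC-primed cells. *Cdkn1b*, which encodes a cyclin-dependent kinase inhibitor, fell in LSEC-primed cells (-0.48 ± 0.13 SE, adjusted p = 0.0166, or 0.0529 as the adjusted p with median scaling).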

How the data were processed

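Total RNA of 17 samples, extracted with QIAzol per the labels' protocols, was labelled with biotin and hybridised to Illumina mouse bead arrays. Both deposited tables hold linear intensity, per the file headers, the first of them not normalised and the second, from its values, quantile normalised by the authors. The scanner software is not stated in the sources. Another 3 columns that match no sample were left out.

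Intensities as deposited without normalisation were corrected with normexp (offset 50), quantile normalised and taken to log2 (limma 3.58.1, R 4.3.3). A probe entered when it exceeded the median of its array on 3 or more of them, as 35237 of 45281 did. Of all probes 34885 carry 1 gene symbol in the platform annotation, 18 carry several and 10378 carry none. Each symbol was read from its brightest probe, giving 23699 features with 16462 named genes. The background of an array is the mode of its log2 intensities plus 3 SD, the SD taken below the mode, and "at least" folds use it. The number of arrays limits the precision.

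Group means were fitted in 1 linear model with eBayes (13 residual and 3.16 prior degrees of freedom), without covariates. P-values are two-sided, Benjamini-Hochberg adjusted across the 23699 features, and a gene was called when its value was under 0.05. The procedure was tested on simulated data. Members and lists were chosen with earlier results of these data known. All members are named, and up to 4 called genes per related list and comparison could be. Alternatives were the authors' processed values, median scaling, no background correction, other filters, the mean of all probes, array weights, eBayes with trend and robust, the compared groups alone, each array left out, memory samples 3 and 5 left out and, chosen after seeing the data, the split by sample number.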

Additional observations from a re-analysis of the deposited data

Results flagged for a closer look

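In groups of 4 or 5 samples, the gap between an extreme array and its nearest neighbour exceeded Dixon's 95% critical value in 10 of the 132 groups tested over the 43 genes and their mean. Chance alone flags about 1 in 20. Log2 levels are given. LSEC-primed sample 7 was low for *Orc6* (8.82, others 9.01 to 9.02), *Mcm5* (9.80, others 10.66 to 10.71) and *Tyms* (7.42, others 8.32 to 8.45). *Pola2* was high in LSEC-primed sample 4 (8.12, others 7.90 to 7.93) and low in naive sample 12 (7.47, others 7.78 to 7.87) and effector sample 17 (8.07, others 8.29 to 8.37). *Mcm10* was high in effector sample 10 (10.44, others 10.16 to 10.23), and *Gins4* was low in effector sample 8 (10.09, others 10.25 to 10.30). In naive sample 2 *Tk1* was low (6.05, others 6.60 to 6.68) and *E2f1* was high (7.78, others 7.30 to 7.44).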

How the results depend on the processing

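Counts are of called genes among the 43, and medians are log2 differences over them. The share of all named genes called under each alternative was not counted. A lower count is therefore not shown to be particular to the 43. For LSEC-primed against naive cells, 18 were called, 6 with median scaling and 7 within samples 1 to 11. For LSEC-primed against effector cells 35 were called, and 22 under either of these settings. For LSEC-primed against memory cells 22 were called, 10 with only the 2 groups compared, 12 without memory samples 3 and 5, which leaves 1 memory array and takes the spread from the other groups, and 14 within samples 1 to 11, and the split of 19 higher and 3 lower became 27 and 0 with median scaling. For memory against naive cells 8 were called, 5 in that same fit with 1 memory array, and the split of 2 higher and 6 lower became 0 and 12 with median scaling. The other alternatives kept each count within 1.5 times. Leaving out 1 array gave 15 to 19 for LSEC-primed and 38 to 40 for effector against naive cells, 30 to 34 for LSEC-primed against effector, 7 to 10 for memory against naive, and 16 to 23 for LSEC-primed and 36 to 39 for effector against memory cells. The medians then ran from 0.33 to 0.43, 1.16 to 1.23, -0.84 to -0.74, -0.25 to -0.17, 0.48 to 0.57 and 1.27 to 1.38 in that order. Without background correction the same 6 medians were 0.26, 0.90, -0.62, -0.12, 0.37 and 0.99. Median scaling moved 5 of them, to 1.59, -1.08, -0.61, 1.28 and 2.49 in that order without LSEC-primed against naive. The mean of all probes gave 0.95 for effector and -0.15 for memory against naive, and 0.38 for LSEC-primed and 1.05 for effector against memory. The authors' processed values gave 1.08 for effector against naive, 0.42 for LSEC-primed and 1.16 for effector against memory. Effector against naive gave 1.15 with no filter, 1.13 within samples 1 to 11 and 1.31 within 12 to 17, and memory against naive gave -0.15 with array weights. Single genes that changed sign from a called value did so with median scaling, *Cdt1* to 0.85, *Rfc2* to 1.28 and *Rpa2* to 0.19 for LSEC-primed against memory, *Rfc2* to -0.78 for memory against naive and *Rpa2* to 0.74 for effector against memory, or with the mean of all probes, *Rfc2* to 0.00042 for LSEC-primed against memory. The cause was not tested. Low signal limits the genes at background in memory cells. No paired analysis was possible because the groups share no sample number.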

Other observations

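Genes of mitosis, which follow S phase, were measured beside the replication genes. Of 36, 29 rose in effector over naive cells and none fell, with a median log2 difference of 2.49, and 18 rose and none fell in LSEC-primed over naive cells, with a median of 0.76. Median scaling left 29 and 9 higher and none lower. With quantile normalisation 14.2% of named genes rose and 12.3% fell in effector cells, and 10.0% rose and 5.76% fell in LSEC-primed cells. *Aurkb*, the kinase of the chromosomal passenger complex, rose by 3.87 ± 0.31 (SE; adjusted p = 6.79e-08) in effector cells. *Nusap1*, a spindle gene, rose by 3.60 ± 0.30 (SE; adjusted p = 7.7e-08) in effector and 1.63 ± 0.31 (SE; adjusted p = 0.00155) in LSEC-primed cells, and *Plk1*, a mitotic kinase gene, by 1.63 ± 0.30 (SE; adjusted p = 0.000961) in LSEC-primed cells. Between LSEC-primed and effector cells 29 of the 36 were lower, led by *Aurkb* (-2.55 ± 0.33 SE, adjusted p = 3.35e-05) and *Top2a* (-2.48 ± 0.41 SE, adjusted p = 0.000366), the topoisomerase that untangles sister chromatids. Of all named genes 9.51% were higher and 8.24% lower in that comparison.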
